A study of Homo sapiens with 4 samples.

Results

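The genes described here mark epithelial or mesenchymal identity. They are VIM, ZEB1 and CDH2 on the mesenchymal side, CDH1, EPCAM, KRT8, KRT18 and KRT19 on the epithelial side, and CDX2 as the intestinal factor. They were chosen by symbol, 9 genes in all, and 6 of them were found among the 13092 genes listed in at least 1 of 2 RNA tables. CDH1, CDH2 and KRT19 were not listed in either table. The measurements come from RKO cells, an established line from a poorly differentiated human colon carcinoma. One library came from RKO cells with the genotype HADH-S overexpression and the other from RKO cells with the genotype WT, titled CTL and called control here. Below they are the HADH-S cells and the control cells. HADH-S is the nuclear isoform of the dehydrogenase HADH named in the series title. The sources used here do not name the overexpression vector or say whether either culture was a single clone. A ChIP library of HADH-S and an input library belong to the same series and were not analysed here.

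Epithelial cells hold to each other through E-cadherin, the product of CDH1, and build their cytoplasmic filaments from pairs of keratins. In an epithelial-to-mesenchymal transition, transcription factors such as ZEB1 and SNAI1 repress E-cadherin and other epithelial genes, while vimentin filaments and often N-cadherin, the product of CDH2, appear. In the normal colon the epithelium carries E-cadherin, EPCAM and keratins 8, 18 and 19, and CDX2 maintains intestinal identity. Carcinoma lines can carry only a part of either programme.

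Each condition had 1 library, without replicates, so no difference could be checked against a spread and no p-value is given. Levels are in RPKM, reads scaled to transcript length and to the assigned reads of the library, and can therefore be compared between genes. Reads assigned to genes totalled 6963608 in the HADH-S library and 6773421 in the control library. Genes without a read are not listed, and the listed reads added up to the library size behind the RPKM values in both tables. A gene missing from a table therefore contributed no read to that total, either because none was counted or because the authors' annotation did not hold it. At the median transcript length, 3 reads correspond to 0.137 RPKM in the HADH-S library and 0.140 RPKM in the control library. HADH, which checks the label, was at 54.4 RPKM in the HADH-S library and at 26.5 RPKM in the control library, the direction of the label. All intervals, given in parentheses, are 95% intervals for counting error only, and PCR copies were not told apart from separate molecules. In bulk RNA, fewer cells of a type and less RNA per cell cannot be told apart.

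RKO carried a mixed set of these genes in both libraries. The highest were KRT18, an epithelial keratin, and ZEB1, the mesenchymal repressor, both near the top of all listed genes. VIM and EPCAM lay in the middle of the range of listed genes, and CDX2 and KRT8 in its lower part. The cadherin genes CDH1 and CDH2 were among the genes not listed. Of RefSeq protein-coding genes, 35.9% were not listed in either table, and 3 of these 9 genes were not. The order of the 6 listed genes, from KRT18 through ZEB1, VIM, EPCAM and CDX2 to KRT8, was the same in both libraries. Each level was scaled to 1 transcript per gene, of 1420 nt for KRT18, 1530 nt for EPCAM, 1687 nt for KRT8, 2154 nt for VIM, 3448 nt for CDX2 and 5990 nt for ZEB1.

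**Figure D1:**
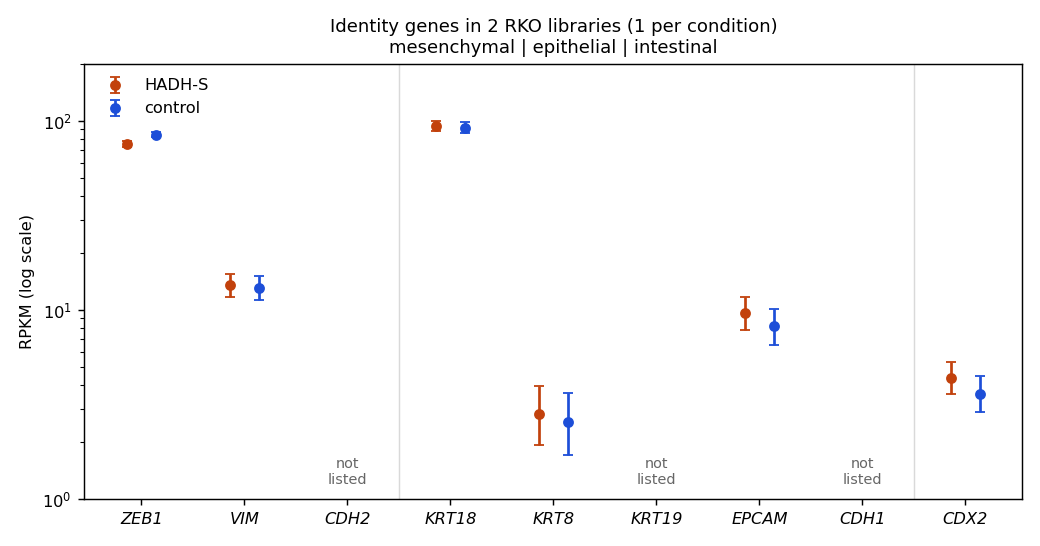
RPKM (log axis) of the 9 genes in the HADH-S library (left point of each pair) and the control library (right point), with exact Poisson 95% intervals of the reads. KRT18 and ZEB1 lie between 75.4 and 93.8 RPKM over both libraries, the other 4 listed genes at 13.5 RPKM or below, and CDH2, KRT19 and CDH1 were not listed.

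ZEB1 (ENSG00000148516, chromosome 10 from 31318417 to 31529804 in GRCh38.p14), a zinc finger and homeodomain protein that binds E-boxes and represses CDH1, was at 75.4 RPKM in the HADH-S library and at 84.3 RPKM in the control library. These levels rest on 3145 reads in HADH-S cells and 3422 reads in control cells, with intervals of 72.8 to 78.1 RPKM in the HADH-S library and 81.5 to 87.2 RPKM in the control library. ZEB1 thus stood at or above 92.7% of listed genes in HADH-S cells and 93.5% in control cells, and it was the best covered of the 6 genes. The RPKM ratio of HADH-S over control was 0.894 (0.851 to 0.939), and the log2 value, which is the log2 of that ratio after adding 1 RPKM to both levels, was -0.16. ZEB1 alone of the 6 listed genes had a counting interval that left out 1. Among the 10331 genes whose RPKM averaged at least 1 over both libraries (called measured below), the interval lay below 1 for 11.6% and above 1 for 13.8%, and 38.7% of them had a log2 value at least as far from 0 as that of ZEB1. The balance of these intervals turned with the scaling, since the 1201 genes below 1 and 1427 above 1 became 1490 below and 1174 above when both libraries were set to equal RPKM totals, and 1370 below and 1276 above at equal 75th percentiles. With the median log2 value set to 0, 1334 lay below and 1303 above.

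The other transcription factors known to drive the transition were at low levels or not listed. SNAI1, which also represses CDH1, was at 0.926 RPKM in HADH-S cells (11 reads) and at 1.39 RPKM in control cells (16 reads), a ratio of 0.669 with an interval of 0.281 to 1.53. SNAI2, TWIST1, TWIST2, ZEB2, PRRX1, GSC and FOXQ1 were not listed in either table, where 35.9% of protein-coding genes were not. SNAI3 and FOXC2 had at most 2 reads. ZEB1 therefore held nearly all of the RPKM of this group, since the 10 other factors searched summed to 1.14 RPKM in HADH-S cells and 1.47 RPKM in control cells. The corepressors through which ZEB1 is known to act were all present, 10 of 10 measured. Of these, the histone deacetylase HDAC1 was at 107 RPKM in HADH-S cells and 109 RPKM in control cells, and the demethylase KDM1A at 71.7 RPKM in HADH-S cells and 67.2 RPKM in control cells. CTBP1 was at 63.2 RPKM in HADH-S cells and 59.5 RPKM in control cells, a ratio of 1.06 (0.971 to 1.16). CTBP2, which binds ZEB1 directly, was at 8.36 RPKM in HADH-S cells and 9.69 RPKM in control cells. The ratio was 0.862 (0.762 to 0.975) for CTBP2 and 0.863 (0.752 to 0.991) for RCOR1, the partner of KDM1A. These were the 2 members of that list with an interval below 1, and 0 had one above 1, against 11.6% below and 13.8% above over the 10331 genes. Of those genes, 30.4% had a log2 value at least as far from 0 as that of CTBP2, and 29.9% as that of RCOR1. The median log2 value was -0.05 for this list and 0.01 for all 10331 genes.

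Upstream sequences from RefSeq (GRCh38.p14, 250 bases before the start, 5′ to 3′) are shown for the members whose window lies outside the gene's own annotated span. They set ZEB1, next in level after KRT18, beside VIM and CDX2, which were lower, and CDH2, which was not listed. Capitals mark CG dinucleotides and, in ZEB1 alone, the E-box letters CAGGTG.
ZEB1 (chr10:31318167-31318416, plus strand): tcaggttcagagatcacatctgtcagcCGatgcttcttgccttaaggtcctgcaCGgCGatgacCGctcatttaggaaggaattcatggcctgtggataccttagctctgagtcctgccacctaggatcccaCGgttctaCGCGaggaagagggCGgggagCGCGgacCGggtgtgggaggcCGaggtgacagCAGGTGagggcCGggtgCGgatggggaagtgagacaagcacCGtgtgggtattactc
VIM (chr10:17227991-17228240, plus strand): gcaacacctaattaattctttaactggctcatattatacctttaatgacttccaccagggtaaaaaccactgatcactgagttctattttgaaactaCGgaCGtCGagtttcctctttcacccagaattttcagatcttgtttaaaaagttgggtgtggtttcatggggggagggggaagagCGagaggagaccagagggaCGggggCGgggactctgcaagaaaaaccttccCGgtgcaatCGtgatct
CDH2 (chr18:28177131-28177380, minus strand): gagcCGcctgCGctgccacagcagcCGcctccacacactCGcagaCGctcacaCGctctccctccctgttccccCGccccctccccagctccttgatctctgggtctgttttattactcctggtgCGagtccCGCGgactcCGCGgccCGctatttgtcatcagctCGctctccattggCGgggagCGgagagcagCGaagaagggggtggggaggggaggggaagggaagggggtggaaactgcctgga
CDX2 (chr13:27969316-27969565, minus strand): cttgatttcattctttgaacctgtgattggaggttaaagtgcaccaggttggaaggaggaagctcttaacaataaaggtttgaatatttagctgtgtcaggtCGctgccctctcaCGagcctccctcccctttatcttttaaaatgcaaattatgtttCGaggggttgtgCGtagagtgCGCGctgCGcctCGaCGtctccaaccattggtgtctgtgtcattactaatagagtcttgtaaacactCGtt
The E-box letters searched were CACCTG and CAGGTG, the same motif on the 2 strands, and 17.5% of all 35116 windows of this length in the table held it at least once. The ZEB1 window held 1, beginning 57 bases before the start, and those of VIM, CDH2 and CDX2 held 0. CG dinucleotides numbered 15 in ZEB1, 8 in VIM, 17 in CDH2 and 10 in CDX2, with a median of 11 over all windows. Of the 4 windows shown, that of CDH2, the unlisted gene, thus had the most CG and that of ZEB1 the next most. Windows at 6 further starts of ZEB1, 1 of CDH2 and the start of KRT8 lie within the genes' annotated spans and are not shown. Of these, 1 window of ZEB1 held the motif, at 2 places, and that of KRT8 held 0 motifs and 1 CG. The 6 further windows of ZEB1 held 21, 14, 27, 25, 18 and 7 CG, and that of CDH2 held 4. The order by CG therefore depends on the start chosen for each gene. The table matched 5 of the 9 genes, leaving out CDH1, EPCAM, KRT18 and KRT19.

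VIM (ENSG00000026025, chromosome 10 from 17228241 to 17237593), which encodes the filament protein vimentin, was at 13.5 RPKM in the HADH-S library (202 reads, 11.7 to 15.5) and at 13.1 RPKM in the control library (191 reads, 11.3 to 15.1). It stood at or above 61.0% of listed genes in HADH-S cells and 60.4% in control cells. The ratio of HADH-S over control was 1.03 (0.840 to 1.26). The level of ZEB1 was 5.60 times that of VIM in HADH-S cells (4.85 to 6.49) and 6.44 times in control cells (5.57 to 7.49). Without strand information, reads of VIM and its antisense neighbour VIM-AS1 cannot be told apart, and the same holds for ZEB1 and ZEB1-AS1.

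Mesenchymal effector genes ranged from high levels to single reads. Of 27 reported here, 12 were not listed, where 35.9% of protein-coding genes were not, and 7 were measured. LGALS1, which encodes a galectin, was at 812 RPKM in HADH-S cells and 873 RPKM in control cells. AXL, a receptor tyrosine kinase often seen with the mesenchymal state, was at 87.3 RPKM in HADH-S cells and 95.9 RPKM in control cells. The ratio was 0.931 (0.885 to 0.979) for LGALS1 and 0.910 (0.865 to 0.958) for AXL. These were the 2 of the 7 with an interval below 1, while 0 had one above 1, against 11.6% and 13.8% of all measured genes. Both rest on many reads, which narrows the interval. LGALS1 had 2986 reads in HADH-S cells and 3121 in control cells, and AXL 2868 and 3064. The median listed gene had 206 in HADH-S cells and 200 in control cells. Of measured genes, 57.2% had a log2 value at least as far from 0 as that of LGALS1, and 46.8% as that of AXL. COL6A1, a collagen VI chain, and NT5E, the ecto-nucleotidase CD73, had log2 values of 0.25 and 0.21, with intervals that included a ratio of 1. ACTA2, a smooth muscle actin that lay below the level of a measured gene and is named after its values were seen, had 11 reads in HADH-S cells and 4 in control cells, a ratio of 2.67 (0.793 to 11.5) and a log2 value of 0.59. Among the collagens and other structural matrix genes of the list, COL6A1 alone was measured. COL6A1 had 117 reads in HADH-S cells and 91 in control cells. FN1, fibronectin, had 3 reads in HADH-S cells and 6 in control cells. COL1A1 had 1 in HADH-S cells and 0 in control cells, and FBN1 had 2 in each library. SPARC, COL1A2, COL3A1, COL5A1, COL6A2, POSTN, VCAN and TGFBI were not listed. The list's median log2 value was -0.10.

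KRT18 (ENSG00000111057, chromosome 12 from 52948855 to 52952906), the type I keratin of simple epithelia, was at 93.8 RPKM in the HADH-S library (928 reads, 87.9 to 100.1) and at 91.7 RPKM in the control library (882 reads, 85.7 to 98.0). KRT8 (ENSG00000170421, chromosome 12 from 52897191 to 52949860), the type II keratin that pairs with it, was at 2.81 RPKM in HADH-S cells (33 reads, 1.93 to 3.95) and at 2.54 RPKM in control cells (29 reads, 1.70 to 3.64). Keratin filaments are built from equal numbers of type I and type II chains, yet the RNA level of KRT18 was 33.4 times that of KRT8 in HADH-S cells (23.6 to 47.3) and 36.1 times in control cells (between 24.96 and 52.3). The ratio of these ratios between libraries was 0.925 (0.557 to 1.54). Between libraries, KRT18 had a ratio of 1.02 (0.932 to 1.12) and KRT8 one of 1.11 (0.652 to 1.89). RefSeq names 68 pseudogenes of KRT18 and 52 of KRT8, and the annotated spans of the 2 genes overlap, so which reads belong to which gene is uncertain. The part of these copies in the gap between the 2 keratins was not tested.

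The other keratins searched gave no further type II partner at a level near that of KRT18. KRT19, a type I keratin of simple epithelia, was not listed, nor were KRT7 and KRT20, the keratins by which colorectal tumours are commonly typed. Of the 15 keratins searched beside the 3 identity genes, 12 were not listed, where 35.9% of protein-coding genes were not. KRT10, a type I keratin of stratified epithelia, was the 1 measured, with 10.3 RPKM in HADH-S cells and 9.51 RPKM in control cells (ratio 1.08, 0.851 to 1.37). Among the 28 cytoplasmic filament genes searched, 7 were listed, and KRT18 made up 74.8% of their summed RPKM in HADH-S cells and 75.3% in control cells. VIM made up 10.7% in HADH-S cells and 10.8% in control cells, and KRT8 made up 2.24% in HADH-S cells and 2.08% in control cells. VIM stood at 0.139 of the summed level of KRT8 and KRT18 in both libraries (0.120 to 0.162 in HADH-S cells and 0.119 to 0.162 in control cells). The filament linker PLEC, plectin, was at 20.1 RPKM in HADH-S cells and 16.5 RPKM in control cells, a ratio of 1.22 (1.14 to 1.30). The linker DST had a ratio of 0.897 (0.789 to 1.02), and of the lamins, LMNB2 was at 60.0 RPKM in HADH-S cells and 58.5 RPKM in control cells and LMNB1 at 44.1 RPKM in HADH-S cells and 41.7 RPKM in control cells.

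CDH1, E-cadherin (chromosome 16 from 68737292 to 68835537), and CDH2, N-cadherin (chromosome 18 from 27932879 to 28177130), were not listed in either table, so neither the 2 levels nor the usual ratio of E-cadherin to N-cadherin could be given. Of 15 other cadherins searched, 9 were not listed, where 35.9% of protein-coding genes were not, and 1 was measured. It was CDH24, a type II cadherin that binds catenins, at 6.06 RPKM in HADH-S cells and 5.65 RPKM in control cells (ratio 1.07, 0.845 to 1.36). The listed catenins of the adherens junction were high. CTNNB1, β-catenin, was at 165 RPKM in HADH-S cells and 172 RPKM in control cells (ratio 0.960, 0.916 to 1.01). CTNNA1, α-catenin, was at 93.8 RPKM in HADH-S cells and 102 RPKM in control cells (ratio 0.920, 0.870 to 0.973) and CTNND1, p120-catenin, at 23.6 RPKM in HADH-S cells and 22.0 RPKM in control cells (ratio 1.07, 0.983 to 1.17). JUP, γ-catenin, was the 1 of 11 adherens junction genes not listed. In that list of 11, 8 were measured, with 1 interval below 1, that of CTNNA1, and 0 above 1. Over all measured genes, 11.6% lay below 1 and 13.8% above. The nectins NECTIN2 (ratio 1.19, 0.979 to 1.45) and NECTIN3 (ratio 0.816, 0.626 to 1.06) had log2 values in opposite directions.

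EPCAM (ENSG00000119888, chromosome 2 from 47369311 to 47387020), an epithelial adhesion molecule, was at 9.57 RPKM in the HADH-S library (102 reads, 7.81 to 11.6) and at 8.20 RPKM in the control library (85 reads, 6.55 to 10.1). The ratio of HADH-S over control was 1.17 (0.867 to 1.58). EPCAM stood at 0.711 of the level of VIM in HADH-S cells (0.560 to 0.902) and at 0.627 in control cells (0.485 to 0.809), and the ratio of these was 1.13 (0.800 to 1.61). In the order of levels, intervals of neighbouring genes overlapped for CDX2 and KRT8 in both libraries, and for KRT18 and ZEB1 in the control library. They did not overlap for KRT18 and ZEB1 in the HADH-S library. KRT18 was 1.24 times ZEB1 in HADH-S cells (1.16 to 1.34) and 1.09 times in control cells (1.01 to 1.17). CDX2 was 1.56 times KRT8 in HADH-S cells (1.04 to 2.38) and 1.42 times in control cells (0.919 to 2.24).

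**Figure D2:**
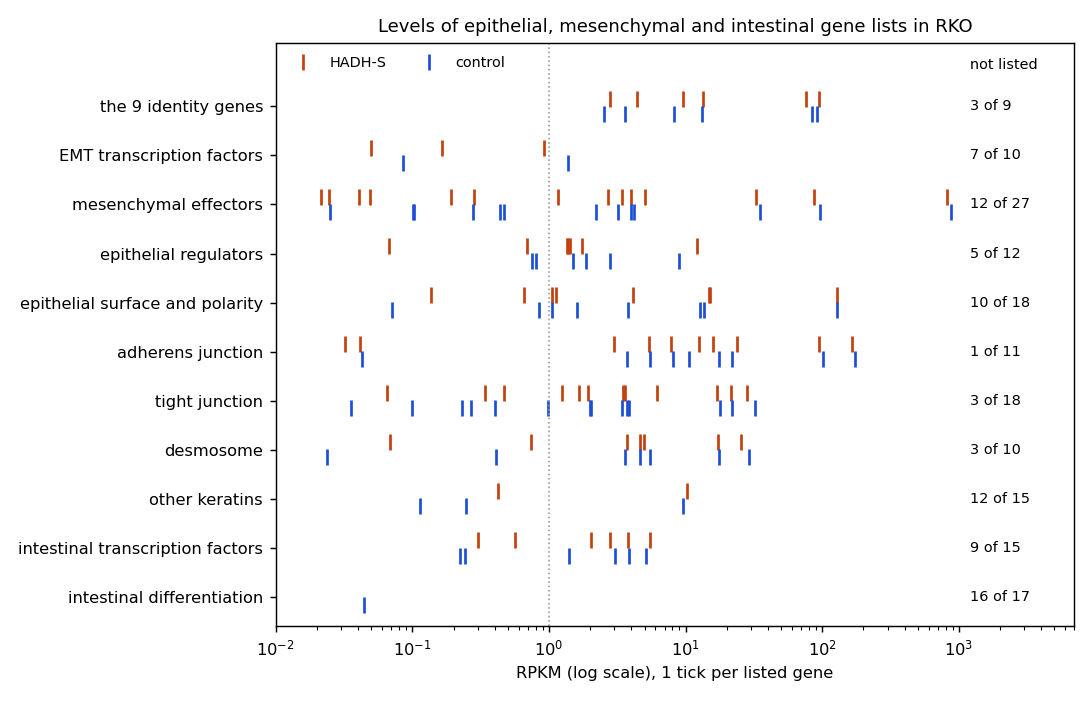
RPKM (log axis) of the genes of 11 lists, with 1 tick for each gene with a read in the HADH-S library (upper row of each pair) or the control library (lower row), and the number of genes not listed in either table at the right. Adherens junction genes are listed in all but 1 of 11 cases, intestinal differentiation genes are unlisted in 16 of 17, and mesenchymal effectors reach from single reads to 812 RPKM in HADH-S cells and 873 RPKM in control cells.

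The epithelial genes around EPCAM were present in part. Of 18 genes of epithelial surface and polarity, 10 were not listed, where 35.9% of protein-coding genes were not, and 6 were measured. The tetraspanin CD9 led them at 129 RPKM in HADH-S cells and 128 RPKM in control cells, and the tricellular junction receptor LSR was at 15.1 RPKM in HADH-S cells and 12.8 RPKM in control cells (ratio 1.18, 0.973 to 1.43). SPINT1, an inhibitor of epithelial serine proteases, was at 14.8 RPKM in HADH-S cells and 13.5 RPKM in control cells. CD24, with 6 reads in HADH-S cells and 9 in control cells, had a ratio of 0.648 (0.190 to 2.04). None of the 6 had an interval that left out a ratio of 1. Of all measured genes, 13.8% had one above 1 and 11.6% one below. Of 18 tight junction genes, 15 were listed and 9 were measured. CLDN12, a claudin, was at 28.2 RPKM in HADH-S cells and 32.0 RPKM in control cells (ratio 0.880, 0.793 to 0.976) and the scaffold TJP1 at 21.5 RPKM in HADH-S cells and 21.7 RPKM in control cells (ratio 0.992, 0.908 to 1.08). F11R, the junctional adhesion molecule JAM-A, was at 6.13 RPKM in HADH-S cells (198 reads) and 3.82 RPKM in control cells (120 reads), a ratio of 1.60 (1.27 to 2.03) and a log2 value of 0.57. F11R and CLDN12 were the 2 of the 9 with an interval that left out 1, against the same 13.8% and 11.6% of measured genes. CLDN7, an epithelial claudin, had 5 reads in HADH-S cells and was not listed in the control table. In the desmosome list, the cadherin DSG2 was at 25.3 RPKM in HADH-S cells and 29.1 RPKM in control cells (ratio 0.870, 0.798 to 0.948), the plakophilin PKP4 at 17.2 RPKM in HADH-S cells and 17.6 RPKM in control cells, and PKP2 at 4.94 RPKM in HADH-S cells and 5.47 RPKM in control cells. DSG2 had the 1 interval below 1 among the 5 measured desmosome genes, and 0 lay above 1, against the same 11.6% and 13.8%. DSP, which encodes the desmosome linker desmoplakin and is named after its values were seen, was below the level of a measured gene at 0.740 RPKM in HADH-S cells (50 reads) and 0.411 RPKM in control cells (27 reads), a ratio of 1.80 (1.11 to 2.99).

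Regulators that hold cells in the epithelial state were low or not listed. Several of them are known targets of ZEB1, and a link between their levels and that of ZEB1 was not tested. GRHL2, OVOL1 and ESRP1 were not listed in either table, and OVOL2 was at 1.36 RPKM in HADH-S cells and 1.87 RPKM in control cells. ESRP2, which directs epithelial splicing with ESRP1, was the exception at 12.0 RPKM in HADH-S cells (283 reads) and 8.89 RPKM in control cells (204 reads), a ratio of 1.35 (1.12 to 1.62). GRHL1 was at 1.73 RPKM in HADH-S cells (43 reads) and 2.81 RPKM in control cells (68 reads), a ratio of 0.615 (0.410 to 0.914). KLF5, a factor of crypt epithelium, had 32 reads in HADH-S cells and 17 in control cells, with an interval of 0.987 to 3.52 that includes a ratio of 1. Of the 12 regulators searched, 5 were not listed, where 35.9% of protein-coding genes were not, and 5 were measured. Among those measured, ESRP2 had an interval above 1 and GRHL1 one below, against 13.8% and 11.6% of all measured genes. ESRP2 overlaps the coding gene NFATC3 at its end in the annotation, so a part of its reads may belong to NFATC3.

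CDX2 (ENSG00000165556, chromosome 13 from 27960918 to 27969315), the homeobox factor of intestinal identity, was at 4.37 RPKM in the HADH-S library (105 reads, 3.58 to 5.29) and at 3.60 RPKM in the control library (84 reads, 2.87 to 4.45). It stood at or above 34.7% of listed genes in HADH-S cells and 31.5% in control cells. The ratio of HADH-S over control was 1.22 (0.904 to 1.64), the highest of the 6, and 24.0% of the 10331 genes had a log2 value at least as far from 0 as its 0.23. CDX1, its relative, and HNF4A, a partner factor of intestinal genes, were not listed. Of 15 intestinal transcription factors reported beside CDX2, 9 were not listed, where 35.9% of protein-coding genes were not, and 4 were measured. GATA4, a factor of the small intestine, was at 5.51 RPKM in HADH-S cells and 3.85 RPKM in control cells (ratio 1.43, 0.933 to 2.22). HNF4G was at 3.76 RPKM in HADH-S cells and 5.17 RPKM in control cells, a ratio of 0.728 (0.563 to 0.938). It had the 1 interval of the 4 that left out 1, against 11.6% below and 13.8% above over all measured genes. Genes of intestinal differentiation were almost entirely unlisted. Of 17, among them the brush border gene VIL1 and the lectin gene LGALS4, 16 were not listed, and the remaining 1, CDHR5, had 1 read in control cells. Of the colonic markers reported here as a check of the cell line's label, CDX2 was thus listed at a low level, and CDX1, HNF4A, VIL1, CDH17 and LGALS4 were not listed.

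**Figure D3:**
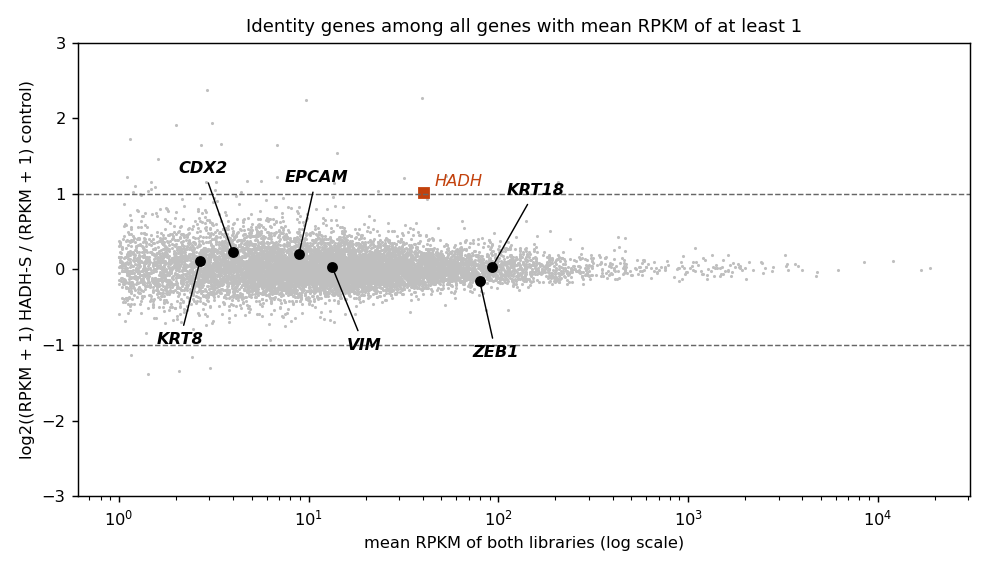
Log2 value of HADH-S over control, after adding 1 RPKM to each level, against the mean RPKM of both libraries (log axis) for the 10331 measured genes, each a grey point. The 6 listed identity genes (black) lie between -0.16 and 0.23, inside the dashed lines at 1 and -1, and HADH (square) lies at 1.01.

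Between the 2 libraries, none of the 6 listed genes differed by the size rule of 1 on the log2 scale in either direction, which is a measure of size and no test. Over the 10331 genes, 0.3% were higher and 0.0484% lower by that rule. At 1.5-fold on the same scale the count of the 6 was again 0, with 1.47% of the 10331 genes higher and 0.436% lower. The log2 values ran from -0.16 for ZEB1 through 0.03 for KRT18, 0.04 for VIM, 0.11 for KRT8 and 0.20 for EPCAM to 0.23 for CDX2, with a median of 0.07 for the 6 and of 0.01 for the 10331 genes. ZEB1 was the 1 gene of the 6 with a value below 0. The values of the 3 mesenchymal and epithelial genes with the most reads are bounded most closely, since the interval of the ratio was 0.851 to 0.939 for ZEB1, 0.932 to 1.12 for KRT18 and 0.840 to 1.26 for VIM. For KRT8, with 33 reads in HADH-S cells and 29 in control cells, ratios from 0.652 to 1.89 lie within counting error. Ratios within 1 gene's interval could not be told apart by counting at this depth. The spread between libraries of a condition is not known and is not part of these intervals.

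**Figure D4:**
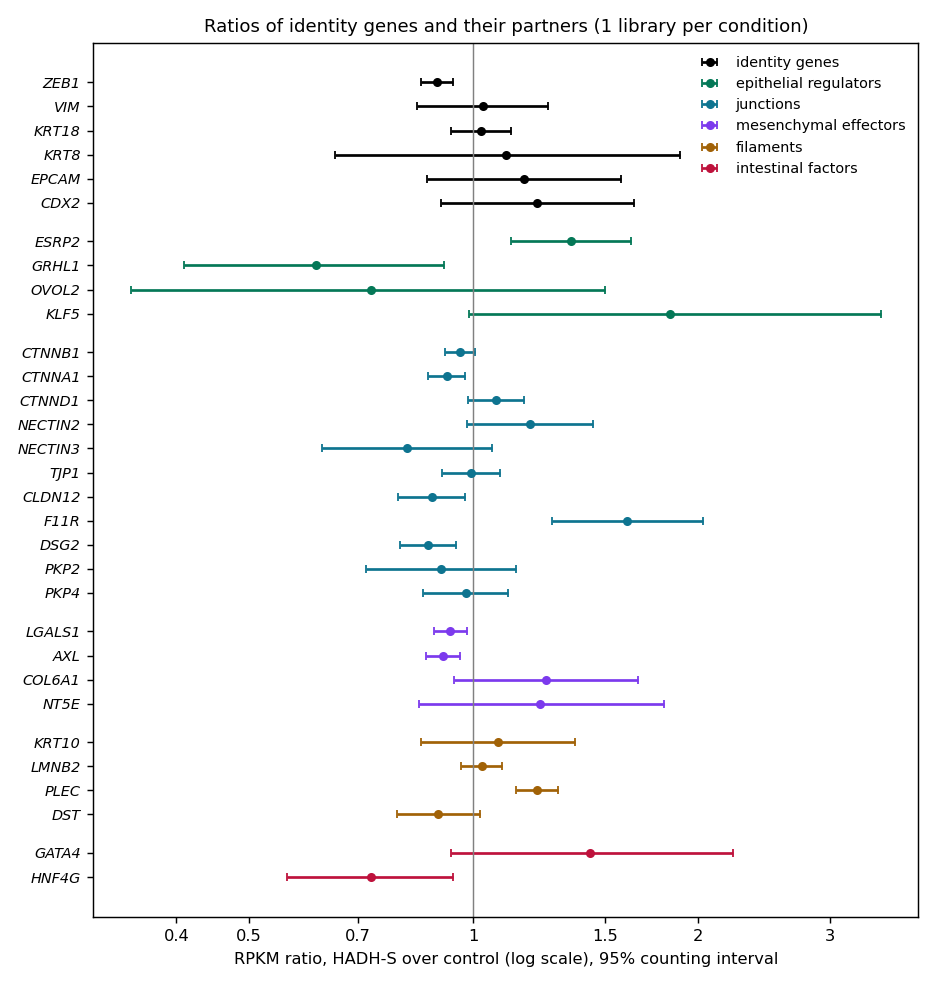
RPKM ratio of HADH-S over control (log axis) for the 6 listed identity genes and 25 partner genes, with 95% counting intervals. Of the identity genes, ZEB1 alone has an interval that leaves out 1 (0.851 to 0.939). Among the partners, intervals lie above 1 for F11R (1.60), ESRP2 (1.35) and PLEC (1.22). They lie below 1 for GRHL1 (0.615), HNF4G (0.728), DSG2 (0.870), CLDN12 (0.880), AXL (0.910), CTNNA1 (0.920) and LGALS1 (0.931).

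Markers of other cell types were near 0 in both libraries. Of 7 fibroblast markers 1 was listed, LUM, with 1 read in each library, and of 7 leukocyte markers, 0 were. The endothelial list had ESAM, with 15 reads in HADH-S cells and 6 in control cells, and CLDN5, with 0 in HADH-S cells and 1 in control cells, of 6 searched. Of 5 neural and 5 muscle markers, 2 and 1 were listed, with at most 4 reads each. For comparison, 35.9% of protein-coding genes were not listed in either table. The summed levels were 0.0538 RPKM in HADH-S cells and 0.0553 RPKM in control cells for fibroblasts, 1.18 RPKM in HADH-S cells and 0.542 RPKM in control cells for endothelium, 0.161 RPKM in HADH-S cells and 0.0651 RPKM in control cells for neural cells, and 0.0839 RPKM in HADH-S cells and 0.0647 RPKM in control cells for muscle.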

How the data were processed

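For each RNA library the authors deposited the RPKM of every gene with a read, per the file headers, each row carrying a symbol, Ensembl identifiers, coding bounds and a transcript length. RNA was isolated with Trizol and made into mRNA libraries, per the labels' protocols. fastp 0.23.2, SAMtools 1.9, MACS2 1.4.2, ChIPseeker and GRCh38 appear for all samples, per the submitters' processing notes. For the RNA, the aligner, counter, strand setting and annotation release were not given in the sources used here, so reads of overlapping or near-identical genes may be split or lost, and RPKM depends on the 1 transcript length per row.

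Reads were recovered as RPKM times transcript length over 1 step per library; 100% of values were whole within 0.01 reads. Members and the 18 other lists were matched by symbol or Ensembl identifier and were chosen with earlier results of these data known; 2 genes are not reported here and are left out of their lists. Named are all members, the 2 highest and the 2 with the largest log2 value in each list at a mean RPKM of at least 1, markers and stated partners. Other genes, such as DSP, were named after their values were seen. Differences used a pseudocount of 1, which understates the change of low genes. Ratio intervals are exact conditional (Clopper-Pearson), level intervals exact Poisson, and ratios between members within a library use log-scale counting variance or, for neighbours, the exact form. With 2 libraries no likeness of patterns between genes could be measured. The steps were tested on simulated reads. Coordinates, biotypes and upstream sequences are from RefSeq GRCh38.p14, and 13073 of 13092 identifiers were in the name table. Python 3.11.15, SciPy 1.17.1 and pandas 2.3.3 were used.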

Additional observations from a re-analysis of the deposited data

How the results depend on the processing

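No paired analysis was possible because each condition had 1 library, and for the same reason no replicate could be left out. None of the 6 listed genes passed a log2 value of 1 or -1 with pseudocounts of 0.1 or 5 or under the 3 rescalings (equal RPKM totals, median log2 value of 0, equal 75th percentiles), and ZEB1 alone kept an interval that left out 1 under these rescalings. ZEB1 stayed between -0.19 and -0.15 on the log2 scale, EPCAM between 0.14 and 0.22 and CDX2 between 0.12 and 0.28. KRT18 (0.01 to 0.03), VIM (0.02 to 0.04) and KRT8 (0.05 to 0.14) kept their direction. Equal totals gave a median over all genes of -0.01, where the deposited values gave 0.01. Scaling to equal totals raises all levels of a library by 1 factor and keeps their order, with ZEB1 at 150.5 in HADH-S cells and 171 in control cells.

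Over all genes, the 31 higher and 5 lower by the size rule became 69 and 15 with a pseudocount of 0.1, 8 and 0 with a pseudocount of 5, and 12 and 0 when the mean RPKM had to reach 5. The lower count was 9 without a filter, which adds the genes with a mean RPKM below 1, and 8 with equal totals. Equal totals raise all levels against the pseudocount and also change the scale between the libraries. The parts of these effects were not separated. Of the 6 listed identity genes, KRT8 had the fewest reads, 33 in HADH-S cells and 29 in control cells, and the widest interval of its ratio.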
